A study of Mus musculus with 8 samples.

Results

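Tumor necrosis factor (TNF), its receptors and the regulators of NF-kB were followed here as 10 genes in heart tissue: the ligand gene Tnf, the receptor genes Tnfrsf1a and Tnfrsf1b, the kinase gene Ikbke, the inhibitor genes Nfkbia and Tnfaip3, and the Rel protein genes Rela, Nfkb1, Nfkb2 and Relb. They were chosen by symbol. All 10 were among the 18835 genes with values in the deposited table, and none was lost to a filter on low values. Treatment with VEGF-C left Tnf and Ikbke more than 2-fold lower than PBS did, Relb and Tnfaip3 were lower by smaller amounts, and the other 6 genes did not pass the test.

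TNF is a cytokine made mostly by macrophages, monocytes and lymphocytes. Its receptors, one of which (Tnfrsf1a) is found on most cells while the other (Tnfrsf1b) is found mainly on immune and endothelial cells, lead to the IkB kinase complex. That complex marks the inhibitor IkB-alpha for breakdown, so that Rel protein dimers enter the nucleus and switch on inflammatory genes, among them the genes of their own inhibitors. In the inflamed heart TNF is known to activate vessel walls, to draw in leukocytes and to depress contraction.

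RNA was sequenced from hearts of 8 male BALB/cAJcl mice, 10 weeks old, all immunized with cardiac myosin to induce autoimmune myocarditis. The first group of 4 mice was injected intraperitoneally with VEGF-C C156S on days 7 to 10 after immunization, at a daily dose of 1 µg, and the other group of 4 was given PBS over the same days. VEGF-C drives the growth of lymphatic vessels, and its C156S variant acts through the receptor VEGFR-3. Hearts were taken in week 3, and no group without myocarditis was analysed here. The numbers of the libraries are those of the deposited columns, which match no animal number in the labels, and each library was counted as 1 animal.

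Library totals were 53.7 to 65.2 M reads in the VEGF-C group and 61.7 to 76.8 M reads in the PBS group. The series title names lymphatic endothelial cells, whereas the sample labels give heart as the tissue. All 8 cardiomyocyte markers had at least 30021 reads in every library, and their summed level was 3326936 to 3610719 normalized counts in VEGF-C hearts against 2401073 to 3252489 in PBS hearts. These sums did not overlap, and 1 of the 8 genes passed as higher. Myh6 averaged 1707042 of a mean sum of 3462505 in VEGF-C hearts and 1375664 of 2875771 in PBS hearts. Myh6 itself did not pass, and its groups overlapped (log2 fold change 0.34 ± 0.28, limma adjusted p = 0.442). The 6 lymphatic endothelial markers summed to 15338 to 26804 normalized counts in VEGF-C hearts and 13636 to 20781 in PBS hearts. Of these 6 markers 1 passed as higher, Flt4 (log2 fold change 0.40 ± 0.12, limma adjusted p = 0.0482), though its groups overlapped. By limma-voom 0 of them passed. Fibroblast markers (464573 to 548959 in VEGF-C hearts and 307772 to 434978 in PBS hearts) and blood endothelial markers (78142 to 91950 in VEGF-C hearts and 64028 to 76524 in PBS hearts), 6 of each, had higher sums in VEGF-C without overlap, and 1 gene of each list passed as higher. In the fibroblast sums, with means of 498166 in VEGF-C and 387325 in PBS hearts, the collagen gene Col1a1 gave 233722 and 144780. Of the 6 fibroblast markers 2 had a negative fold change, Pdgfra (-0.21) and Dcn (-0.12). In a mixture of cells, fewer cells of a type and less RNA per cell cannot be told apart. A normalized count is a read count divided by the authors' scaling factor of that library. In 6 of the 10 members VEGF-C 1 was the highest of the VEGF-C libraries, and in 6 of the 10 PBS 1 was the highest of the PBS libraries.

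Promoter sequences were taken from RefSeq (GRCm38.p6), in windows from 250 bases before to 50 bases after the gene start. They matched 8 of the 10 members, all except Nfkb1 and Relb. The NF-kB consensus was searched on both strands as the single motif, so no overlap with another motif arises. It was found in Tnfaip3, Nfkbia and Nfkb2, 3 of the 8 members, against 6.55% of the 27025 genes with such windows and 5.80% of all 32851 windows of this length. The 150 bases before the start are printed for these 3 genes, which encode regulators of NF-kB itself, and for Tnf and Ikbke, the genes with the lowest fold changes among the members. The table has 2 starts for Tnfaip3 and 3 for Nfkb2, of which the first is shown. Capitals mark the matches.
Tnfaip3, chr10:19015411-19015560, strand -: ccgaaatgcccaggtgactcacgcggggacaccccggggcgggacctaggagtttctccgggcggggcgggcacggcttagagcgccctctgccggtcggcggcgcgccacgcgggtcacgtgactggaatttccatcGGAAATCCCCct
Nfkbia, chr12:55492648-55492797, strand -: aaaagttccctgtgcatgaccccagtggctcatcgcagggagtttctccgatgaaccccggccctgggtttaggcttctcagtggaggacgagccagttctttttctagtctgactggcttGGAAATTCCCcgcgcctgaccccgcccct
Nfkb2, chr19:46304587-46304736, strand +: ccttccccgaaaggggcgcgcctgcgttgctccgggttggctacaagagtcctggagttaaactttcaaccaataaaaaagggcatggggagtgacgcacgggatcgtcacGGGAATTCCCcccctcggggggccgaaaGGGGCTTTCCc
Tnf, chr17:35202008-35202157, strand -: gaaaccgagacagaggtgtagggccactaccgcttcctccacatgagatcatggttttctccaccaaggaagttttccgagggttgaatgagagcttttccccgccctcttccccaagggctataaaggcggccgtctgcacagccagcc
Ikbke, chr1:131279564-131279713, strand -: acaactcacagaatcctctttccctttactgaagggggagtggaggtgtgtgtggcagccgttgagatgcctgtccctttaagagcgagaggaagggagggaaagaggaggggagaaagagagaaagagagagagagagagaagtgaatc
In Tnfaip3 the match GGAAATCCCC began 12 bases before the start, and in Nfkbia GGAAATTCCC began 29 bases before it. Nfkb2 had GGGAATTCCC at 39 bases and GGGGCTTTCC at 11 bases before the start, a window with at least 2 matches, as 0.667% of all windows have. The other 2 windows of Nfkb2 share 1 further match, GGGACTTTCC, and the second window of Tnfaip3 holds none. Of these 3 genes Tnfaip3 passed the test between the groups and Nfkbia and Nfkb2 did not. The windows of Tnf, Tnfrsf1a, Tnfrsf1b, Rela and Ikbke held no match to these letters, and a match by itself is not evidence of binding. Sequence outside the windows was not searched, so sites further from these starts would not have been seen.

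The comparison of VEGF-C with PBS hearts asks whether TNF and NF-kB transcripts differed between the treatments. With limma fitted to all genes on the deposited log2 scale, 4 of the 10 members had a Benjamini-Hochberg adjusted p under 0.05, all 4 lower in VEGF-C, where 15.7% of all genes tested passed in either direction, 8.61% as lower and 7.05% as higher. As higher, 0 members passed in limma, 0 in limma-voom and 0 at an unadjusted p under 0.05. That last threshold was met by the same number of members, 4, against 32.3% of all genes. In the same 4 genes the libraries of the groups did not overlap, against 23.0% of all genes. At least 2-fold lower with an adjusted p under 0.05 were 2 members, against 3.25% of all genes. The median log2 fold change was -0.15 over the 10 members and 0.0013 over all genes. Relb and Tnfaip3 rested on the full set of libraries: without PBS 1, without PBS 3, without VEGF-C 2 or without VEGF-C 3 the count of members was 2.

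**Figure D1:**
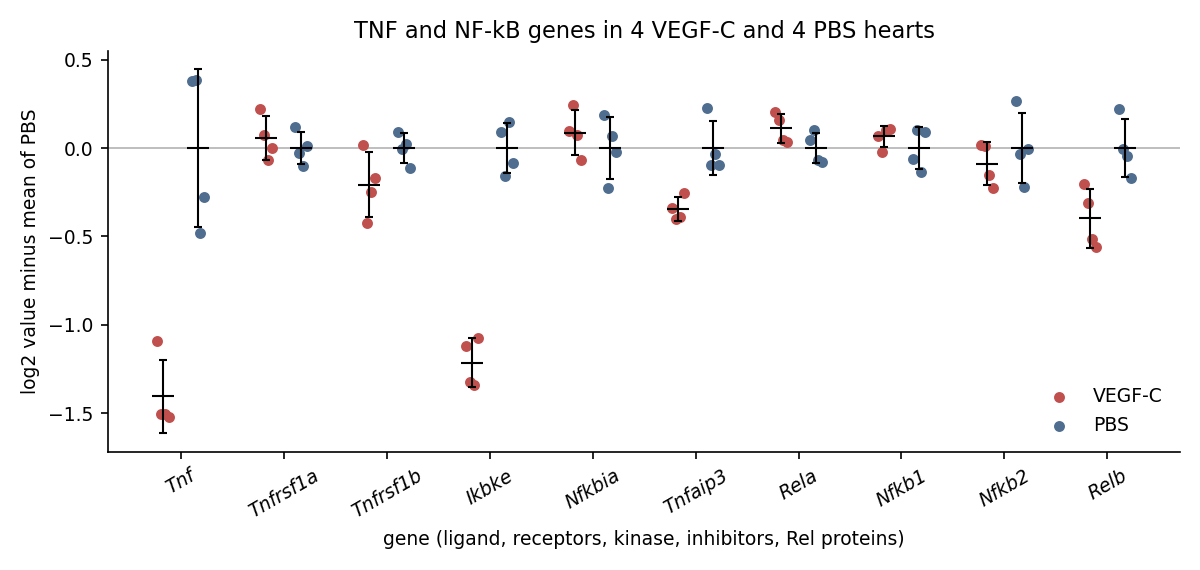
Deposited log2 value of each member minus its mean in PBS hearts (y axis), by gene (x axis), with 4 VEGF-C libraries left of 4 PBS libraries. Each point is 1 library, and bars are the mean and SD. All VEGF-C points lie below all PBS points in Tnf, Ikbke, Tnfaip3 and Relb, and the groups overlap in the other 6 genes.

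Tnf (ENSMUSG00000024401, chromosome 17), the ligand, had 129.4, 96.1, 96.4 and 95.04 normalized counts in VEGF-C hearts 1 to 4, against 365, 367, 199.7 and 230.2 in PBS hearts 1 to 4. The highest VEGF-C heart, the first, lay below the lowest PBS heart, and the PBS hearts fell into a high and a low pair. It was read 74 to 122 times per VEGF-C library and 228 to 449 times per PBS library, the fewest reads of any member. The log2 fold change was -1.41 ± 0.22 (SE), a level 2.65-fold lower in VEGF-C, with a limma adjusted p of 0.00375. This call held without any 1 of the 8 libraries (limma adjusted p from 0.00438 to 0.0140), PBS 1 included.

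Markers of the cells that make TNF moved in part with it. Of 8 pan-macrophage markers 0 passed the test by limma or limma-voom, and 6 had a negative fold change (median -0.12). With an unadjusted limma p under 0.05 there were 2, both lower, Itgam (-0.50 ± 0.17) and Csf1r (-0.18 ± 0.08). The 8 markers summed to 115881 to 175580 normalized counts in VEGF-C hearts and 120798 to 206740 in PBS hearts. Lyz2 averaged 122951 of a mean sum of 145004 in VEGF-C hearts and 129645 of 153782 in PBS hearts, so these sums follow mostly Lyz2. The macrophage genes Adgre1 and Cd68 had log2 fold changes of 0.14 ± 0.12 and -0.05 ± 0.14. Of 6 monocyte markers 1 passed as lower, and all 6 had a negative fold change (median -0.37). They summed to 77910 to 117541 normalized counts in VEGF-C hearts and 62397 to 148952 in PBS hearts, where PBS 1 alone was below 116715. Fn1, a matrix gene, averaged 83215 of a mean sum of 93851 in VEGF-C hearts and 98932 of 112564 in PBS hearts. These sums thus follow mostly Fn1. Of 7 neutrophil markers 2 passed as lower, with sums of 10639 to 32521 in VEGF-C hearts and 16864 to 42565 in PBS hearts, with PBS 1 the lowest and the other 3 at 25673 to 42565. All 7 had a negative fold change (median -0.72), and the 2 that passed were Mmp9 and Csf3r (-0.77 ± 0.21, limma adjusted p = 0.0316). S100a9 averaged 9063 and S100a8 5341 of a mean sum of 18032 in VEGF-C hearts. In PBS hearts they averaged 14484 and 8072 of 29164. The neutrophil sums thus follow mostly S100a9 and S100a8. Of 8 T cell markers 0 passed by limma or limma-voom, 4 had a negative fold change, and 2 had an unadjusted limma p under 0.05, both lower. The sums of the T cell markers were 2818 to 3821 normalized counts in VEGF-C hearts and 2807 to 3857 in PBS hearts. B cell markers passed as lower in 4 of 6, with sums of 706 to 1847 in VEGF-C hearts and 2688 to 4542 in PBS hearts, the one list of the 6 blood cell lists here whose summed levels did not overlap between the groups. Dendritic cell markers passed in 0 of 7 by limma or limma-voom (2 at an unadjusted limma p under 0.05, both lower), and all 7 had a negative fold change (median -0.57). They had sums of 2751 to 3906 in VEGF-C hearts and 3850 to 6586 in PBS hearts, where PBS 1 was the highest and the others reached 4230. No marker of these 6 lists was at 0. The part of these cells in the lower Tnf, Ikbke, Relb and Tnfaip3 was not tested.

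The receptor genes did not pass. Tnfrsf1a (ENSMUSG00000030341, chromosome 6), whose protein carries a death domain, had 6086 to 7430 normalized counts in VEGF-C hearts and 5942 to 6908 in PBS hearts. Its log2 fold change was 0.06 ± 0.08 (95% interval -0.12 to 0.24, limma adjusted p = 0.663). Tnfrsf1b (ENSMUSG00000028599, chromosome 4), whose protein binds TRAF adaptors and lacks a death domain, had 4407, 3253, 3669 and 3876 normalized counts in VEGF-C hearts against 4650, 4350, 4430 and 4036 in PBS hearts. Only the first VEGF-C heart reached into the PBS range. The log2 fold change of Tnfrsf1b was -0.21 ± 0.09 (95% interval -0.42 to 0.0038, limma adjusted p = 0.162).

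Ikbke (ENSMUSG00000042349, chromosome 1), which encodes the IkB kinase-related kinase IKK-epsilon, had the smallest p-value of the 10 members and ranked 28 among all genes. It had 844, 731, 721.5 and 871 normalized counts in VEGF-C hearts 1 to 4, against 1958, 1647, 2031 and 1733 in PBS hearts 1 to 4. The lowest PBS heart was well above the highest VEGF-C heart, and the spread was alike in both groups (SD 0.14 on the log2 scale in each). Its log2 fold change was -1.21 ± 0.10 (95% interval -1.44 to -0.99), a level 2.32-fold lower, with a limma adjusted p of 0.000139. Without any 1 library the adjusted p was 0.000302 to 0.000897. In GENCODE M21 its exons share 159 and 65 bases with the antisense genes Gm28914 and Gm28913, and no source used here gives the strand setting of the counting, so reads of these stretches are uncertain. Gm28913 averaged 28.9 reads per library.

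The inhibitor genes differed in behaviour. Nfkbia (ENSMUSG00000021025, chromosome 12), which encodes IkB-alpha, had 3475 to 4313 normalized counts in VEGF-C hearts and 3106 to 4138 in PBS hearts. Its log2 fold change was 0.09 ± 0.10 (95% interval -0.13 to 0.31, limma adjusted p = 0.584). Tnfaip3 (ENSMUSG00000019850, chromosome 10), which encodes the ubiquitin-editing enzyme A20, had 901, 861, 867 and 955 normalized counts in VEGF-C hearts, against 1332, 1066, 1112 and 1067 in PBS hearts. All VEGF-C hearts were below all PBS hearts, with PBS 1 the highest. The log2 fold change of Tnfaip3 was -0.35 ± 0.09 with a limma adjusted p of 0.0333, and this call was lost without PBS 1 (-0.27, limma adjusted p = 0.0606), without PBS 3 and without VEGF-C 1, 2 or 3 (limma adjusted p up to 0.0863).

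Among the Rel protein genes Relb fell and the other 3 did not pass. Relb (ENSMUSG00000002983, chromosome 7), the partner of the Nfkb2 product in the non-canonical branch of the pathway, had 1722, 1602, 1390 and 1348 normalized counts in VEGF-C hearts, against 2318, 1978, 1922 and 1763 in PBS hearts. The groups were separate by a narrow margin, between VEGF-C 1 and PBS 4. Its log2 fold change was -0.40 ± 0.11 with a limma adjusted p of 0.0345, and the call was lost without PBS 1 (-0.32, limma adjusted p = 0.0619), without PBS 2 or 3 and without VEGF-C 2, 3 or 4 (limma adjusted p up to 0.0944). Rela (ENSMUSG00000024927, chromosome 19), the main activating subunit, had 4817 to 5412 normalized counts in VEGF-C hearts and 4449 to 5035 in PBS hearts, with a change of 0.11 ± 0.07 on the log2 scale (95% interval -0.05 to 0.27, limma adjusted p = 0.317). Nfkb1 (ENSMUSG00000028163, chromosome 3), whose product pairs with that of Rela, had 5092 to 5584 in VEGF-C hearts and 4712 to 5551 in PBS hearts (log2 fold change 0.07 ± 0.07, limma adjusted p = 0.587). Nfkb2 (ENSMUSG00000025225, chromosome 19) had 3222 to 3808 in VEGF-C hearts and 3229 to 4523 in PBS hearts (log2 fold change -0.09 ± 0.11, limma adjusted p = 0.602). The exons of Nfkb2 share 299 bases with Psd on the other strand in GENCODE M21, and 531 bases with a long noncoding RNA there, so some of its reads are uncertain.

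**Figure D2:**
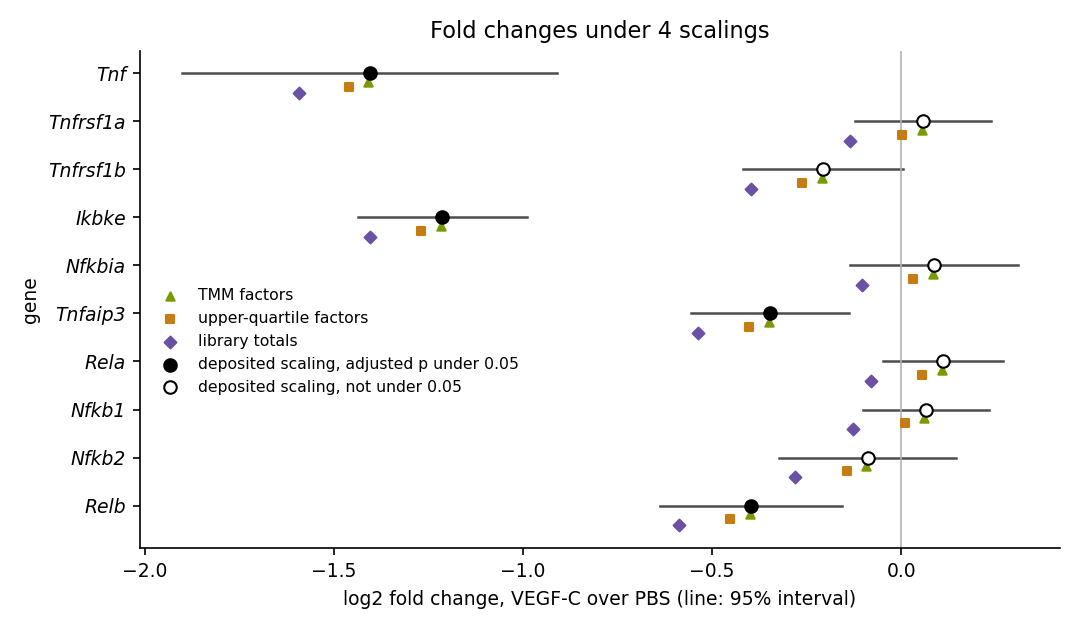
Log2 fold change of VEGF-C over PBS (x axis) for each member (y axis) with the deposited scaling (circles, filled where the adjusted p is under 0.05, with the 95% interval) and with 3 other scalings of the recovered reads. Tnf, Ikbke, Tnfaip3 and Relb lie below 0 under all 4 scalings, whereas Tnfrsf1a, Nfkbia, Rela and Nfkb1 lie above 0 except with library totals.

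Other scalings left the 4 calls in place. With TMM factors and with upper-quartile factors the same 4 genes passed. With library totals the median of all genes moved by -0.19 (log2) and Tnfrsf1b passed as well, which made 5 members (-0.40, limma adjusted p = 0.0192; adjusted p up to 0.338 in its other alternatives). The fold changes of Tnfrsf1a, Nfkbia, Rela and Nfkb1 then turned negative, lying between -0.13 and -0.08, and none of these 4 passed under any of the 17 alternatives.

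Levels were compared between genes per kilobase of merged exon length, taken from GENCODE M21 over all annotated transcripts of a gene. The order depends on these lengths, which can exceed that of any single transcript. Nfkb1 (12061 bases) averaged 5416 normalized counts in VEGF-C and 5186 in PBS hearts before this division. Rela (3072 bases) averaged fewer, 5079 and 4704. Tnfrsf1a was the most abundant member, at 2565 ± 223 normalized counts per kb in VEGF-C hearts and 2461 ± 156 in PBS hearts (SD, n = 4), and its range over the 4 hearts overlapped that of Nfkbia in both groups. Rela followed at 1653 ± 95.4 in VEGF-C hearts and 1531 ± 91.9 in PBS hearts, then Tnfrsf1b, with 996 ± 126 in VEGF-C hearts and 1144 ± 66.6 in PBS hearts, and then Nfkb2. Relb and Nfkb1 overlapped in both groups. At the low end of VEGF-C hearts stood Tnfaip3 (124 ± 5.94), Ikbke (87.8 ± 8.49) and Tnf (63.6 ± 10.2), whose ranges did not overlap. In PBS hearts the 3 genes were Ikbke (204 ± 20.1), Tnf (177 ± 53.8) and Tnfaip3 (158 ± 17.6), and neighbours in this order overlapped. The 2 members with the lowest fold changes were thus also among the 3 least abundant.

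**Figure D3:**
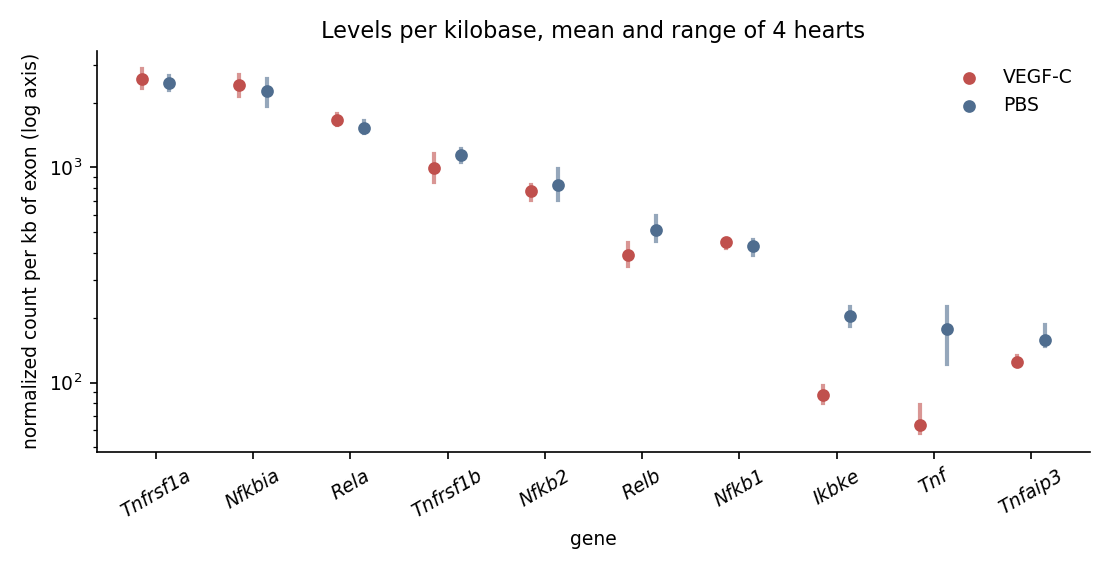
Normalized counts per kilobase of merged exon (y axis, log scale) for each member (x axis), with VEGF-C left of PBS. Points are means and lines the range of 4 hearts. Tnfrsf1a and Nfkbia are at the top in both groups, and Tnf and Ikbke are the lowest in VEGF-C hearts.

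In ratios of gene pairs within a library its scaling cancels, except through the 4 added to each value before the log2. That 4 weighs most on Tnf, the member with the fewest reads. Over 10 pairs, chosen after the values were seen, an exact two-sided permutation test over the 70 assignments of the libraries was used, whose smallest p is 0.0286. In 8 pairs the groups did not overlap, and each had that exact permutation p (0.0357 adjusted over the 10 pairs). Since the pairs were picked on these values, these p-values restate that separation and are a description. Tnfrsf1b relative to Tnfrsf1a had a log2 ratio of -0.81 ± 0.15 in VEGF-C hearts and -0.55 ± 0.10 in PBS hearts (SD, n = 4). The ranges were separate by a narrow margin, -1.04 to -0.72 in VEGF-C hearts and -0.67 to -0.42 in PBS hearts. Relb relative to Rela stood at -1.75 ± 0.08 in VEGF-C hearts and -1.24 ± 0.13 in PBS hearts. For Tnfaip3 relative to Nfkbia the values were -2.10 ± 0.19 in VEGF-C hearts and -1.67 ± 0.11 in PBS hearts.

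Ikbke was lower relative to each of the other kinases of its family that were paired with it. Its log2 ratio to Tbk1, which encodes the closest relative of IKK-epsilon, was -1.11 ± 0.13 in VEGF-C hearts and -0.26 ± 0.13 in PBS hearts (SD, n = 4). To Ikbkb it was -1.71 ± 0.13 in VEGF-C hearts and -0.98 ± 0.12 in PBS hearts, and to Chuk -0.87 ± 0.22 in VEGF-C hearts and 0.26 ± 0.21 in PBS hearts. Tnf relative to the macrophage gene Cd68 was -4.90 ± 0.26 in VEGF-C hearts and -3.54 ± 0.53 in PBS hearts, and relative to Tnfrsf1a -5.95 ± 0.11 in VEGF-C hearts and -4.49 ± 0.40 in PBS hearts. The pairs that did not pass were Nfkb2 with Nfkb1 (difference -0.15, exact permutation p = 0.343) and Nfkbia with Rela (difference -0.02, exact permutation p = 0.857).

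**Figure D4:**
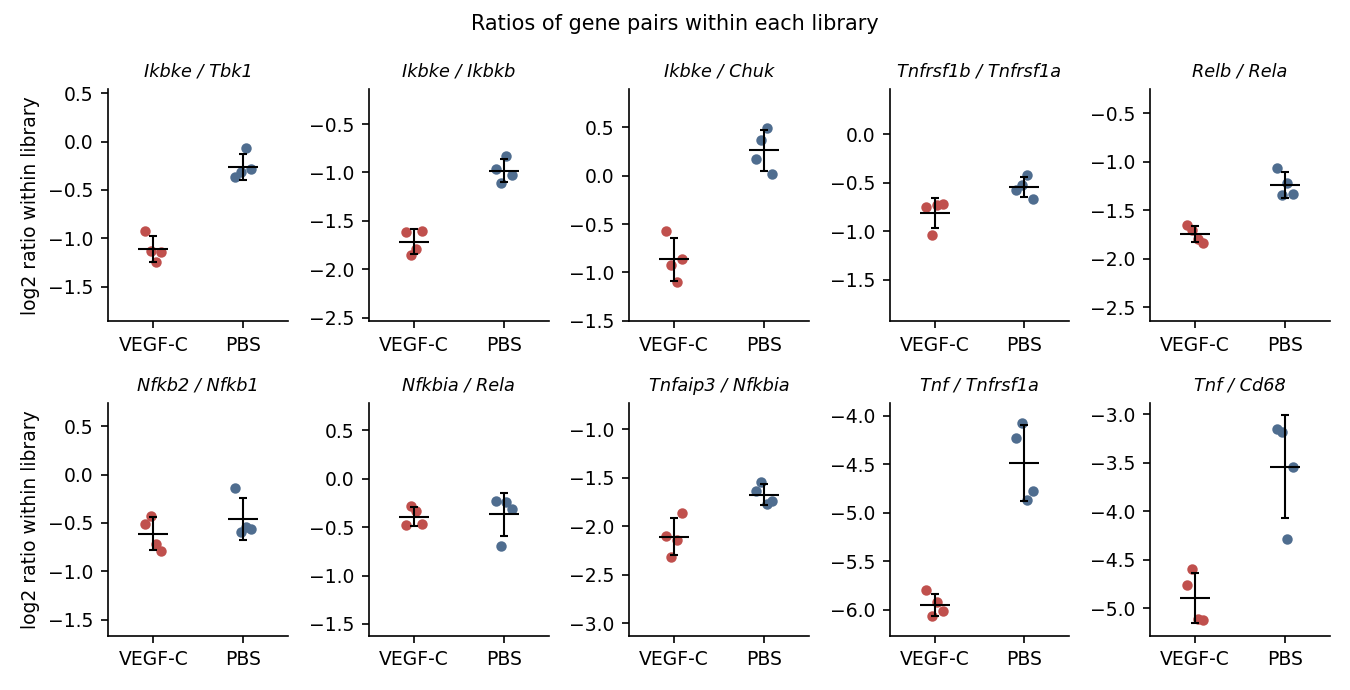
Log2 ratio of 10 gene pairs within each library (y axis, the same span in each panel), with 4 VEGF-C libraries left of 4 PBS libraries; bars are mean and SD. The groups overlap for Nfkb2 over Nfkb1 and for Nfkbia over Rela and are separate in the other 8 panels.

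The other genes of the pathway were taken as 10 lists with 133 genes, of which 129 had values (Faslg, Cd70, Tnfsf4 and Csf2 had none). Of the 129 genes 27 (20.9%) passed, 23 lower (17.8%) and 4 higher (3.10%), where over all genes 8.61% were lower and 7.05% higher. Their median log2 fold change was -0.15. Without VEGF-C 3 the count was 16, 14 lower and 2 higher.

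Receptors of the TNF family other than the members held the most calls, 7 of 22, all lower (median -0.44). Tnfrsf14, the receptor HVEM, had 282, 257, 171 and 292 normalized counts in VEGF-C hearts against 975, 581, 673.5 and 652 in PBS hearts, with no overlap. Its log2 fold change was -1.51 ± 0.20 (limma adjusted p = 0.00155). Tnfrsf13c, the BAFF receptor of B cells, fell by 2.02 ± 0.39, Tnfrsf18 (GITR), a costimulatory receptor of T cells, by 1.02 ± 0.19 and Tnfrsf13b (TACI), another receptor of B cells, by 0.67 ± 0.14 (log2, limma adjusted p = 0.00854, 0.00726 and 0.0129). The B cell marker sums given above were also lower in VEGF-C hearts, and their part in the values of the B cell receptors was not tested. Of 14 further ligands of the family 0 passed by limma or limma-voom (median -0.31), with 5 at an unadjusted p under 0.05, 4 of them lower. The nearest were Ltb, the membrane partner of lymphotoxin (-0.61 ± 0.19, limma adjusted p = 0.0540), and Tnfsf13, which encodes APRIL (-0.66 ± 0.24, limma adjusted p = 0.0848). Both passed with library totals (limma adjusted p = 0.0152 and 0.0348), and Ltb also with upper-quartile factors, with the replicate block, without PBS 4 and without VEGF-C 1 (limma adjusted p from 0.0115 to 0.0494).

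The steps between receptor and kinase are read beside the 8.61% lower and 7.05% higher over all genes. Of 19 adaptors and ubiquitin ligases 2 were lower, Traf1 (-0.77 ± 0.17, limma adjusted p = 0.0162) and Birc3, which encodes the ubiquitin ligase cIAP2 (-0.44 ± 0.11, limma adjusted p = 0.0299). The list median was -0.06, and the call of Birc3 was lost without a mean-variance trend, with the replicate block, without PBS 3 or 4 and without VEGF-C 1, 3 or 4 (limma adjusted p up to 0.0841). Of 7 genes of the cell death branch Ripk3, the kinase of necroptosis, was lower (-0.55 ± 0.13, limma adjusted p = 0.0203, or 0.0513 without VEGF-C 3; median of the list -0.17), whereas its substrate gene Mlkl missed the threshold (-0.29 ± 0.11, limma adjusted p = 0.0906) except with library totals (0.00996). Of 5 genes of TNF shedding 1 passed: Timp3, the inhibitor of the sheddase ADAM17, was higher at 12089 to 17220 normalized counts in VEGF-C hearts, against 8959 to 11168 in PBS hearts (0.52 ± 0.11, limma adjusted p = 0.0144; median of the list 0.06). Rhbdf1, which helps ADAM17 to mature, did not pass (0.07 ± 0.08, limma adjusted p = 0.618). The call of Timp3 was lost with library totals (limma adjusted p = 0.0717), and the part of the higher fibroblast and endothelial marker sums in it was not tested.

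Kinases and inhibitors beside the members showed 2 and 3 lower genes. Of 8 kinase genes and partners (median -0.03), Ikbkb, the main catalytic subunit of the IkB kinase complex, had 2584, 2647, 2511 and 2657 normalized counts in VEGF-C hearts against 3821, 3545, 3604 and 3545 in PBS hearts. The difference was -0.48 ± 0.06 on the log2 scale (limma adjusted p = 0.00132). Tbk1 was lower by a smaller amount (-0.36 ± 0.09, limma adjusted p = 0.0271), a call lost without VEGF-C 1, 2 or 3 (limma adjusted p up to 0.0687). Of 10 further IkB and Rel genes (median -0.10) the atypical nuclear IkB genes Nfkbid (-1.03 ± 0.19, limma adjusted p = 0.00756) and Nfkbiz (-0.47 ± 0.09, 0.00896) and the IkB-epsilon gene Nfkbie (-0.59 ± 0.15, 0.0291) were lower. Among 8 partners of A20 and deubiquitinases (median 0.13) Tnip2 was lower (-0.51 ± 0.09, limma adjusted p = 0.00747) and Rnf11 higher (0.37 ± 0.09, limma adjusted p = 0.0261). Without a mean-variance trend the calls of Tbk1, Nfkbie and Rnf11 were lost, and that of Tbk1 also with the replicate block. The call of Nfkbie was further lost without PBS 3 and without VEGF-C 3 or 4, and that of Rnf11 without PBS 2, without VEGF-C 1, 3 or 4 and with library totals (limma adjusted p up to 0.0756 and 0.222).

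Of 11 regulators of Tnf mRNA (median 0.01), 2 passed as lower and 1 as higher, where 8.61% and 7.05% of all genes did. Tial1 and Tia1, whose proteins repress Tnf translation, were lower by 0.52 ± 0.08 and 0.44 ± 0.08 on the log2 scale (limma adjusted p = 0.00246 and 0.00778). Elavl1, which encodes the mRNA-stabilizing protein HuR, was higher by 0.32 ± 0.06 (limma adjusted p = 0.0108), a call lost with library totals (limma adjusted p = 0.197). Of 25 target genes of NF-kB (median -0.49), 5 were lower and 1 higher. The neutrophil protease gene Mmp9, also one of the neutrophil markers (-0.91 ± 0.20, limma adjusted p = 0.0149), the chemokine gene Cxcl1 (-1.33 ± 0.32, 0.0212) and the cytokine gene Il1b (-1.22 ± 0.32, 0.0303) were lower, and the anti-apoptotic Bcl2l1 was higher (0.45 ± 0.12, 0.0316). The remaining 2 lower genes, named after their values were seen, were Il6 (-1.49 ± 0.41, limma adjusted p = 0.0343) and Ccl2 (-0.80 ± 0.23, limma adjusted p = 0.0429). With limma-voom 4 of the 25 target genes were lower, Mmp9, Cxcl1 and Il1b among them, so at most 1 of Il6 and Ccl2 passed there. The other alternatives are not given here for Il6 and Ccl2. Il1b had 678 to 1540 normalized counts in VEGF-C hearts and 1986 to 5068 in PBS hearts, and the top PBS value was that of PBS 1. The calls of Cxcl1 and Il1b were lost without VEGF-C 1, 2 or 3, that of Cxcl1 also without PBS 2, both with a robust variance fit and that of Il1b without a mean-variance trend (limma adjusted p up to 0.0597 and 0.0803). That of Bcl2l1 was lost without PBS 2 or 4, without VEGF-C 1, 2 or 3, without a mean-variance trend, with upper-quartile factors (0.0626) and with library totals (limma adjusted p up to 0.175). Markers of neutrophils, which also express Mmp9, Il1b and Cxcl1, summed to 10639 to 32521 normalized counts in VEGF-C hearts and 16864 to 42565 in PBS hearts, and their part in these values was not tested. Those sums follow mostly S100a9 and S100a8, as given above.

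**Figure D5:**
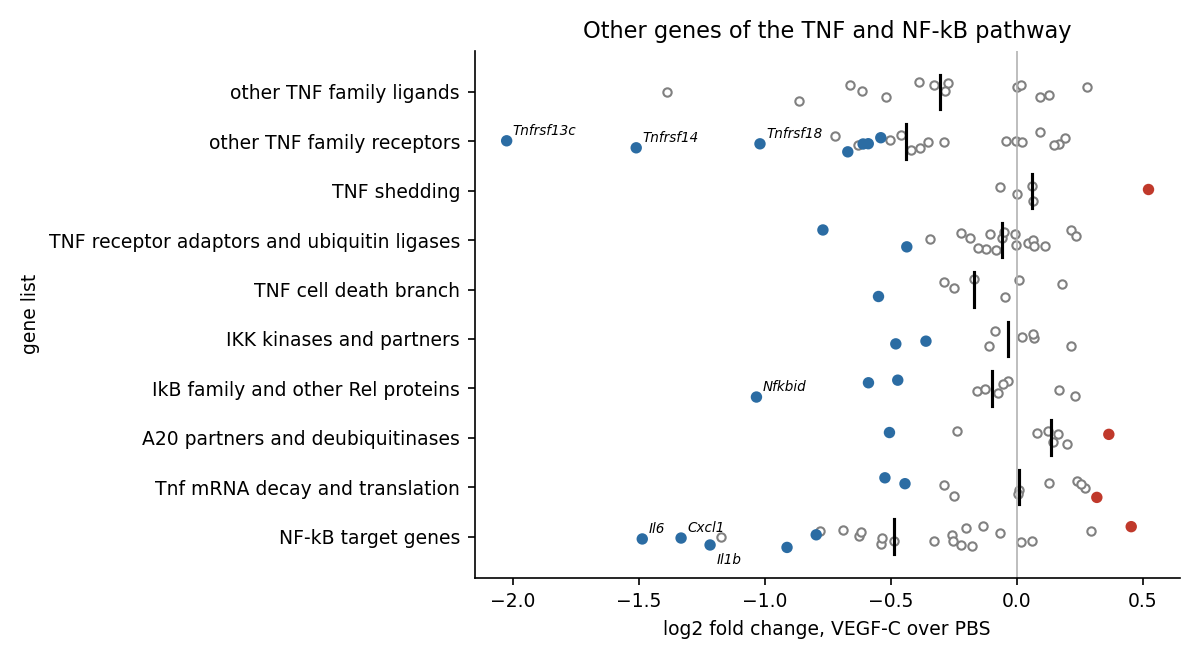
Log2 fold change of VEGF-C over PBS (x axis) of the other pathway genes, by list (y axis). Each point is 1 gene, blue where lower and red where higher with an adjusted p under 0.05 and open otherwise; vertical bars are list medians, and called genes with a change of at least 2-fold are named. The median lies lowest for NF-kB target genes (-0.49) and other TNF family receptors (-0.44).

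The genes with the most similar profile over the 8 libraries were found by the root mean square difference of log2 values, each centred on its own mean, among 14379 genes. Nearest to Ikbke were Alpk1 (difference 0.11 log2 units), which encodes a kinase that senses a bacterial sugar, and Tcirg1 (0.11), which encodes a subunit of the vacuolar proton pump, followed by Irag2 (0.12). For Tnf they were Zan (0.19), Acap1 (0.20) and Carmil2 (0.20), an actin regulator needed for costimulation of T cells. The closest to Tnfaip3 were Ripk2, the kinase downstream of NOD receptors, Tbk1 and Vav1 (0.05, 0.05 and 0.06), and to Relb Olfr99, the GTPase gene Rac2 and Tube1 (0.07, 0.08 and 0.08). With 8 libraries in 2 groups this likeness is a description.

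In the authors' deposited table the log2 fold changes of the called members were -1.48 for Tnf, -1.22 for Ikbke, -0.40 for Relb and -0.35 for Tnfaip3. The authors' deposited table gives these 4 genes, and no other member, an adjusted p under 0.05 (9.43e-08, 1.47e-23, 0.00958 and 0.00980), a threshold that 21.7% of its genes with such a value passed.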

How the data were processed

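RNA of 8 mouse hearts was sequenced with a stranded mRNA kit on an Illumina NovaSeq instrument, per the labels' protocols. The submitters' processing notes name DESeq2 1.38.3, Subread 2.0.1 with featureCounts, STAR 2.7.10a, Trim Galore 0.6.10 and GRCm39. For the annotation release, the strandedness of counting and the gene filter, no details are given in the sources used here. Values in the deposited table are log2(x + 4), x being reads over a library factor, as read back from them (100% whole reads in every library, tolerance 0.01 reads); of 56941 genes listed, 18835 have values. The authors' deposited log2 fold changes and adjusted p-values were used as deposited.

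Limma 3.58.1 (R 4.3.3) was fitted to the deposited log2 values of all 18835 genes with treatment as the single factor, moderated variances with a mean-variance trend and two-sided Benjamini-Hochberg adjusted p-values with a threshold of 0.05. Because of the pseudocount, changes of genes with few reads are understated. The labels carry animal numbers, which match no deposited column, and do not state outright that each sample is a separate animal. Each library was counted as 1 animal, and p-values measure only the spread between these samples, part of which may be technical. The fit was tested on simulated data of 18835 genes, where it called 94.5% of 200 genes changed 2-fold and 26.5% of 200 changed 1.5-fold. The simulation gave all genes a common dispersion that was set and not estimated from these data. Genes with the lowest mean counts were not among those changed. These rates hold for that setting and are not the power for any member. The members and gene lists were chosen with earlier results of these data known. Named were all members, up to 4 passing genes of each list by p-value (up to 2 by p-value where fewer than 2 passed), and the 3 genes of nearest profile to each member that passed, with a mean of at least 10 reads and without predicted genes, pseudogenes and receptor segments. Exon lengths and overlaps came from GENCODE M21 and promoters from RefSeq, both of GRCm38, another build than that of the counts. Alternatives were 3 scalings, a pseudocount of 1, a filter at 10 reads, limma-voom, other variance fits, a block by column number and each library left out.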

Additional observations from a re-analysis of the deposited data

Results flagged for a closer look

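In 72 groups of 4 libraries, those of 36 named genes, 4 held a library far from the other 3 by Dixon's criterion for 4 values at the 95% level, which chance meets in about 1 of 20 groups. Tnf stood at 7.06 (log2) in VEGF-C 1, against 6.63 to 6.65 in the other VEGF-C libraries. Its call held without that library (limma adjusted p = 0.00771). In PBS 1, Il1b stood at 12.31 and the other 3 PBS libraries at 10.96 to 11.08. Tbk1 was 11.31 in PBS 1 and 11.01 to 11.06 in PBS 2 to 4. Rhbdf1 stood at 12.08 in PBS 2, against 11.78 to 11.81 in the other PBS libraries.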

How the results depend on the processing

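Of the 10 members, Tnf and Ikbke passed under all 17 alternatives run, with limma adjusted p up to 0.0140 and 0.00207. Relb and Tnfaip3 kept their direction under all 17; without a mean-variance trend neither passed (limma adjusted p = 0.0663 and 0.0515), which left 2 members called. Leaving out 1 library gave 2 to 4 called members, 16 to 27 called pathway genes and 1684 to 2906 called genes in all, the lowest of the last 2 without VEGF-C 3. With library totals 47 pathway genes passed, all lower, and 5 members. The split over all genes was 1328 higher and 1621 lower with the deposited scaling, 243 and 3572 with library totals, and 797 and 1920 with upper-quartile factors. With library totals the fold changes of Tnfrsf1a (-0.13), Nfkbia (-0.10), Nfkb1 (-0.13), Rela (-0.081) and Rhbdf1 (-0.13) were reversed, none of them past the threshold under either scaling; the cause was not tested. Timp3, Rnf11, Elavl1 and Bcl2l1 did not pass with library totals, so no pathway gene then passed as higher. The planned negative binomial count models were not run; the recovered reads were tested with limma-voom (2784 called genes, 4 members). No pairing is given in the labels: libraries with the same column number had correlations of their deviations from the group means of -0.20 to 0.12, and a replicate block by that number gave 2161 called genes, 25 pathway genes and 3 members, all but Tnfaip3 (limma adjusted p = 0.0603). Of the members, Tnf had the fewest reads, 74 to 449 per library.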
